A study of Mus musculus with 12 samples.

Results

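The collagen and laminin chains are the 55 protein-coding genes of the deposited table whose symbols have the form of a collagen alpha chain (Col, a number, a, a number) or of a laminin alpha, beta or gamma chain, out of 78317 gene rows. They comprise 44 collagen and 11 laminin genes. They were measured in cells of the mouse triple-negative breast cancer line 4T1, as PBRM1 KO cells with TGFβ1, PBRM1 KO cells untreated, control cells with TGFβ1 and control cells untreated, with 3 biological replicates each. TGFβ1 was given at 5 ng/ml for 4 days, and the sample titles mark the untreated cells as 0 h, so treatment and time in culture cannot be told apart. PBRM1, a protein with many bromodomains, belongs to PBAF, one of the SWI/SNF complexes that remodel chromatin. The library names give the controls as sgCt; whether the KO cells are 1 clone or a pool, and which exon was edited, is not given in the sources used here.

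Collagens and laminins are the main structural proteins of the extracellular matrix. Laminin chains assemble as heterotrimers of an alpha, a beta and a gamma chain and, with collagen IV, form the sheet of the basement membrane on which epithelial cells sit. Laminin-332, which holds the products of Lama3 and Lamb3, anchors epithelial cells through integrins and hemidesmosomes, and collagen VII (Col7a1) ties it to the matrix below. Fibrillar collagens such as collagen I form the fibres of connective tissue, and TGFβ1 is a well-known inducer of matrix genes.

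Of the 55 chains, 24 had a mean of at least 1 CPM (counts scaled to the same library total) over the 12 libraries, 17 collagens and 7 laminins. The same 24 passed the low-count filter of the test. A further 23 had counts but lay below 1 CPM, and 8 had no count in any library: Col6a5, Col6a6, Col10a1, Col19a1, Col24a1, Col26a1, Col28a1 and Lama1. A count of 0 over all 12 libraries allows up to 0.0236 CPM (3 counts, counting error only). The chains just inside the 1 CPM line were Col6a2 at 1.53 and Col5a2 at 1.11 CPM, and those just outside were Col6a3 at 0.72, Col15a1 at 0.60, Lama4 at 0.57 and Col8a2 at 0.44 CPM. Together the 55 chains took between 0.0995% and 0.186% of a library's counts. Each count is a unique molecule read from the 3′ end of its transcript, so a transcript counts about once whatever its length and CPM levels are not divided by length.

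Library totals ran from 9265693 to 11250850 counts. The epithelial marker list had 9 of 10 genes at a mean of 1 CPM or more and sums of 2551 to 3665 CPM, while Krt5 stayed at or below 0.142 CPM. Of the fibroblast list 3 of 10 genes reached a mean of 1 CPM, of the leukocyte list 1 of 7 (Cd68) and of the endothelial list 0 of 6. Pbrm1 was read at 207 to 274 CPM in the 6 PBRM1 KO libraries and at 258 to 328 CPM in the 6 control libraries; its log2 difference was −0.33 ± 0.10 untreated (adjusted p = 0.349) and −0.25 ± 0.10 with TGFβ1 (adjusted p = 0.513), and 3′ counts do not check an edit upstream of the read. The TGFβ1 targets Ccn2, Smad7 and Fn1 all rose with TGFβ1 in both genotypes. Replicate 3 stood apart among the TGFβ1 libraries of both genotypes. Its log CPM values correlated with replicates 1 and 2 at 0.979 and 0.982 in PBRM1 KO cells, where those 2 replicates correlated at 0.992, and at 0.979 and 0.978 in control cells, where they correlated at 0.990. TGFβ1 values of the named chains are therefore given with and without both replicate 3 libraries in each genotype where either fit called them.

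The laminin chain at the highest mean level was Lamb1, at 277 CPM, the beta chain shared by many epithelial laminins. Lamc1, the gamma chain of most laminins, averaged 90.9 CPM. Lama5, the alpha chain of laminin-511 and laminin-521, averaged 71.2 CPM, Lamb3 53.2 CPM, Lama3 9.47 CPM and Lamb2 6.18 CPM. All 3 beta chains were above 1 CPM, as were 2 of 5 alpha chains. Among collagens the highest mean was that of Col8a1, a short-chain network collagen, at 204 CPM. The basement membrane chain Col4a1 averaged 110 CPM, and its partner Col4a2 averaged 40.4 CPM.

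Col18a1, the multiplexin whose C-terminal fragment is endostatin, averaged 88.2 CPM and Col7a1 82.5 CPM. Col16a1, a collagen that associates with fibrils without forming them (FACIT), averaged 45.9 CPM. Col5a1, which helps to start collagen I fibrils, averaged 35.1 CPM and Col27a1, a fibrillar collagen best known from cartilage, 30.1 CPM. The classical connective-tissue chains were lower, with Col1a1 at 21.3, Col1a2 at 13.6 and Col3a1 at 4.53 CPM. Col12a1 averaged 9.01, Col4a5 6.64, Col6a1 4.27 and Col17a1 2.59 CPM. Of the 11 fibrillar collagen genes 6 were above 1 CPM, against 2 of 9 FACIT genes.

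**Figure D1:**
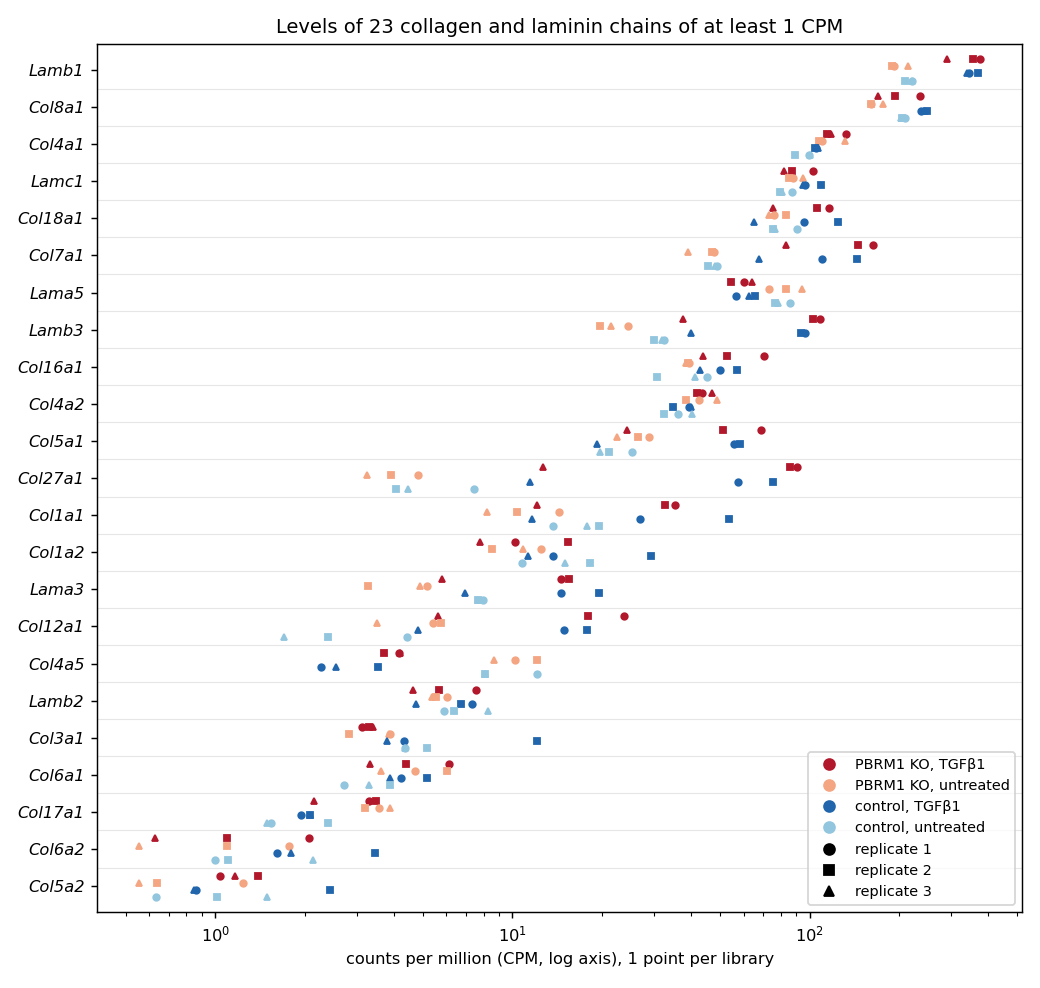
Levels of 23 of the 24 chains with a mean of at least 1 CPM, in CPM on a log axis, ordered by mean; each point is a library, colour gives the group and shape the replicate. Lamb1 lies highest and Col5a2 lowest, and the TGFβ1 points of Col27a1 spread from 11.5 to 90.4 CPM.

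With TGFβ1, 6 of the 24 chains tested rose and 2 fell in PBRM1 KO cells, and 6 rose and 2 fell in control cells (edgeR quasi-likelihood test, Benjamini-Hochberg adjusted p below 0.05 over 14012 genes). Of the chains that rose, 5 of 6 in each genotype did so in both, Lamb1, Lamb3, Col7a1 and Col27a1 among them, and Lama5 and Col4a5 fell in both. Lama3 rose in PBRM1 KO cells and Col12a1 in control cells. This split depended on the fit: with the replicate number as a block, Col12a1 also passed in PBRM1 KO cells (adjusted p = 0.000348). Over all genes tested, 7.65% rose and 3.72% fell in PBRM1 KO cells, and 5.89% rose and 2.91% fell in control cells. The median log2 change of the 24 chains was 0.30 in PBRM1 KO cells, where that of all genes was 0.00, and 0.44 in control cells, where it was 0.00. In these bulk libraries, more cells of a kind and more RNA per cell cannot be told apart.

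Lamb3, the beta chain of laminin-332, rose in both genotypes. It had 108, 103 and 37.4 CPM in PBRM1 KO cells with TGFβ1, against 24.5, 19.7 and 21.5 CPM untreated. The control cells had 96.7, 93.5 and 39.8 CPM of Lamb3 with TGFβ1, against 32.3, 29.9 and 31.9 CPM untreated. Replicate 3 was the lowest treated library in both genotypes, yet no treated library overlapped an untreated one. The log2 fold change of Lamb3 was 1.90 ± 0.36 (SE) in PBRM1 KO cells (adjusted p = 0.00522) and 1.28 ± 0.35 in control cells (adjusted p = 0.0384). Without both replicate 3 libraries it was 2.24 ± 0.10 in PBRM1 KO cells and 1.59 ± 0.10 in control cells. The control call was lost when any library other than treated replicate 3 was left out (adjusted p up to 0.162) and with limma-voom, and the PBRM1 KO call was kept throughout.

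Lama3, the alpha chain of the same trimer, was at a lower level than Lamb3 in every library. PBRM1 KO cells with TGFβ1 had 14.6, 15.5 and 5.81 CPM, against 5.16, 3.28 and 4.90 CPM untreated. Control cells with TGFβ1 had 14.6, 19.6 and 6.91 CPM of Lama3, against 7.96, 7.65 and 7.66 CPM untreated. In control cells the treated replicate 3 lay below all untreated libraries, whereas in PBRM1 KO cells the groups did not overlap. Lama3 rose by 1.41 ± 0.38 in PBRM1 KO cells (adjusted p = 0.0323), and its log2 change in control cells was 0.82 ± 0.36 (adjusted p = 0.182). Without both replicate 3 libraries the changes were 1.73 ± 0.18 in PBRM1 KO cells and 1.14 ± 0.17 in control cells, and both then passed (adjusted p = 4.56e-06 in PBRM1 KO cells and 0.00016 in control cells). The PBRM1 KO call was lost when any library other than treated replicate 3 was left out (adjusted p up to 0.146) and with limma-voom.

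Lamb1 had the smallest adjusted p of the chains that rose. It was counted at 376, 355 and 289 CPM in PBRM1 KO cells with TGFβ1, against 192, 189 and 215 CPM untreated. Control cells gave 343, 370 and 338 CPM with TGFβ1, against 222, 210 and 221 CPM untreated. The groups were well apart in both genotypes, and in control cells replicate 3 was close to replicate 1. The log2 change was 0.76 ± 0.09 in PBRM1 KO cells (adjusted p = 0.000336) and 0.68 ± 0.09 in control cells (adjusted p = 0.00074), and each time 1 of the 6 libraries of a comparison was left out the call was kept. With both replicate 3 libraries left out it was 0.85 ± 0.08 in PBRM1 KO cells and 0.70 ± 0.08 in control cells. Lamb2, the beta chain of laminin-521, showed log2 changes of 0.06 ± 0.21 in PBRM1 KO cells and −0.13 ± 0.21 in control cells, neither past the threshold. Lamc1 had log2 changes of 0.01 ± 0.09 in PBRM1 KO cells (adjusted p = 0.974) and 0.28 ± 0.09 in control cells (adjusted p = 0.0794; 0.31 ± 0.09 and 0.029 without both replicate 3 libraries).

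The anchoring-fibril collagen Col7a1 stood at 163, 146 and 83.2 CPM in PBRM1 KO cells with TGFβ1, against 47.8, 46.9 and 39.0 CPM untreated. In control cells it stood at 110, 144 and 67.4 CPM with TGFβ1, against 48.7, 45.4 and 48.2 CPM untreated. Treated libraries lay above all untreated ones in both genotypes. The log2 changes were 1.53 ± 0.25 in PBRM1 KO cells (adjusted p = 0.00224) and 1.18 ± 0.25 in control cells (adjusted p = 0.0124). Leaving both replicate 3 libraries out gave 1.77 ± 0.12 in PBRM1 KO cells and 1.42 ± 0.12 in control cells. The control call was lost without treated replicate 2 or without untreated replicate 2 (adjusted p up to 0.0704). Col7a1 had fractional counts, as reads split between genes would give, in 6 of 12 libraries.

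Col27a1 had the largest fold change of the 24 chains in both genotypes. PBRM1 KO cells held 90.4, 85.8 and 12.7 CPM with TGFβ1, against 4.80, 3.91 and 3.24 CPM untreated. Control cells held 57.6, 75.1 and 11.5 CPM with TGFβ1, against 7.41, 4.05 and 4.47 CPM untreated. Replicates 1 and 2 were far above replicate 3, which was itself above every untreated library. The change was 3.95 ± 0.74 in PBRM1 KO cells (15.5-fold, adjusted p = 0.00515) and 3.16 ± 0.72 in control cells (8.95-fold, adjusted p = 0.0176). With both replicate 3 libraries left out it was 4.44 ± 0.19 in PBRM1 KO cells and 3.62 ± 0.18 in control cells. The control call was lost without treated replicate 1 or 2 and without untreated replicate 2 or 3 (adjusted p up to 0.0829), and limma-voom called Col27a1 in neither genotype.

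Col12a1, a FACIT collagen of tendon and other dense tissue, had 23.7, 17.9 and 5.63 CPM in PBRM1 KO cells with TGFβ1, against 5.42, 5.73 and 3.51 CPM untreated. Its control libraries had 14.9, 17.9 and 4.83 CPM with TGFβ1, against 4.43, 2.40 and 1.70 CPM untreated. In PBRM1 KO cells replicate 3 fell among the untreated libraries, while the control groups did not overlap. Col12a1 rose by 2.11 ± 0.55 in control cells (adjusted p = 0.0322), and its log2 change in PBRM1 KO cells was 1.66 ± 0.51 (adjusted p = 0.0504). Both passed without the replicate 3 libraries, at 2.06 ± 0.23 in PBRM1 KO cells and 2.49 ± 0.26 in control cells. With the replicate number as a block in edgeR, Col12a1 also passed in PBRM1 KO cells, at 1.59 (adjusted p = 0.000348). The control call was lost when any library other than treated replicate 3 was left out (adjusted p up to 0.155) and with limma-voom.

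The start regions of Lamb1, Lamb3, Col7a1 and Col27a1 are shown because these 4 chains rose together in both genotypes. Each runs 5′ to 3′ on the gene's strand from 250 bases before the RefSeq start to 50 bases after it, in build GRCm38.p6, with capitals for matches to CAGACA, a SMAD-type element, or GGGCGG, a GC box, on either strand. The windows are chr12:31265043-31265342 (+) for Lamb1, chr1:193301744-193302043 (+) for the first of 2 Lamb3 starts, chr9:108953336-108953635 (+) for Col7a1 and chr4:63215162-63215461 (+) for Col27a1.
Lamb1: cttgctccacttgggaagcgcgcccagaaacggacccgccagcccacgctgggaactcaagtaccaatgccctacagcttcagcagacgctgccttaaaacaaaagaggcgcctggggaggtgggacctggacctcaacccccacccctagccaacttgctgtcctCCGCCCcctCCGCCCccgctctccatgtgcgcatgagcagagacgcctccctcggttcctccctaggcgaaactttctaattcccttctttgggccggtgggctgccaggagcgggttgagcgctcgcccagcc
Lamb3: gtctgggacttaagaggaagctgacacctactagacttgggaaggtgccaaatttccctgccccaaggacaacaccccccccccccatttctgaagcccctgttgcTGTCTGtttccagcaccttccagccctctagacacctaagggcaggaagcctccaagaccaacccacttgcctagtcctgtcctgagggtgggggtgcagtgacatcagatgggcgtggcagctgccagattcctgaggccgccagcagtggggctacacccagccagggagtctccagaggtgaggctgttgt
Col7a1: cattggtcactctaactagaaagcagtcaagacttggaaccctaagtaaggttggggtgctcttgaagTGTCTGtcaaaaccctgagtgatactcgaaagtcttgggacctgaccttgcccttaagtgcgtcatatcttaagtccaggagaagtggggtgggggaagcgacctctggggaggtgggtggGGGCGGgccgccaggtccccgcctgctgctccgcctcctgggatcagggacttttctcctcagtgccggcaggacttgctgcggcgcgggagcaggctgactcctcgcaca
Col27a1: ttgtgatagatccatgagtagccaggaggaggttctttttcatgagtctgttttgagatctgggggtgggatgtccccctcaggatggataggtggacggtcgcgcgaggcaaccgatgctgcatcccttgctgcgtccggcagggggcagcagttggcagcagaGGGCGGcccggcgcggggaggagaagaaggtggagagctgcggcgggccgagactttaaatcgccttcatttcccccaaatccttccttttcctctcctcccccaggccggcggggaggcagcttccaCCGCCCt
CAGACA, on the reverse strand, began at −144 in Lamb3 and −182 in Col7a1, and 21% of all 32851 promoter windows hold it. GGGCGG was in the Lamb1 window at −84 and −75, in Col7a1 at −61 and in Col27a1 at −85 and +44, and 35.7% of all windows hold it. Neither GTCTAGAC, the palindromic SMAD element found in 0.213% of all windows, nor TGANTCA, an AP-1 type element found in 7.81%, was found in these 4 windows. The GC content of the 4 windows was 58.7% to 63.7%, where the median over all windows was 52.7%. A match describes letters and is not a bound site.

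Lama5 and Col4a5 fell. Col4a5, a collagen IV chain that assembles with the α3 and α4 or the α6 chains, had 4.15, 3.68 and 4.20 CPM in PBRM1 KO cells with TGFβ1, against 10.2, 12.1 and 8.69 CPM untreated. Control cells had 2.27, 3.53 and 2.55 CPM of Col4a5 with TGFβ1, against 12.1, 8.11 and 8.09 CPM untreated. Every treated library, replicate 3 included, was below every untreated one. Col4a5 fell by 1.37 ± 0.20 on the log2 scale in PBRM1 KO cells (adjusted p = 0.00101) and by 1.75 ± 0.21 in control cells (adjusted p = 0.000377), and it was called with any 1 library of the comparison left out. It fell by 1.42 ± 0.23 in PBRM1 KO cells and by 1.69 ± 0.25 in control cells without both replicate 3 libraries. Its neighbour on the X chromosome, Col4a6, averaged 0.30 CPM and was not tested.

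Lama5 stood at 60.2, 54.6 and 63.8 CPM in PBRM1 KO cells with TGFβ1, against 72.8, 83.2 and 94.6 CPM untreated. In control cells it stood at 56.6, 65.4 and 62.7 CPM with TGFβ1, against 86.2, 76.6 and 78.1 CPM untreated. The groups were separate in both genotypes, although the change was the smallest among the called chains. Lama5 fell by 0.50 ± 0.10 in PBRM1 KO cells (adjusted p = 0.00897) and by 0.38 ± 0.10 in control cells (adjusted p = 0.0385). The control call was lost in 5 of the 6 fits that left out a library (adjusted p up to 0.137) and kept in that without treated replicate 3, and the PBRM1 KO call was lost without treated replicate 2 (adjusted p = 0.0559). Lama5 passed in both genotypes without both replicate 3 libraries, at −0.56 ± 0.11 in PBRM1 KO cells and −0.41 ± 0.11 in control cells.

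The windows of these 2 chains are shown for comparison with the 4 above, in the same form: chrX:141475169-141475468 (+) for Col4a5 and chr2:180225810-180226109 (−) for Lama5.
Col4a5: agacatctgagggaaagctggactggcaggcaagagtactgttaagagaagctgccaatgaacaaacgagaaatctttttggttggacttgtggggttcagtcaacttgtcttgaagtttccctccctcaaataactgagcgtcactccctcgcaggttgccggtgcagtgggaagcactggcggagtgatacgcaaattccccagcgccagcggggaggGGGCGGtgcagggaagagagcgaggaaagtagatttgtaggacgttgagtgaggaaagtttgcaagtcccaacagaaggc
Lama5: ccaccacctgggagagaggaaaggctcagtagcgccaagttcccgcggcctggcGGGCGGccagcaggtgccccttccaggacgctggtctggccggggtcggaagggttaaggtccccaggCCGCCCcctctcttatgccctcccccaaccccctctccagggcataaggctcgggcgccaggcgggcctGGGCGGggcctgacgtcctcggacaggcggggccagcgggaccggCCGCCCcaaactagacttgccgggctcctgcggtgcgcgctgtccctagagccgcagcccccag
GGGCGG was matched once in Col4a5, at −30, and 4 times in Lama5, and no other motif searched was found in either window. Their GC contents were 52.7% and 72.7%, which lie below and above those of the windows of the chains that rose.

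**Figure D2:**
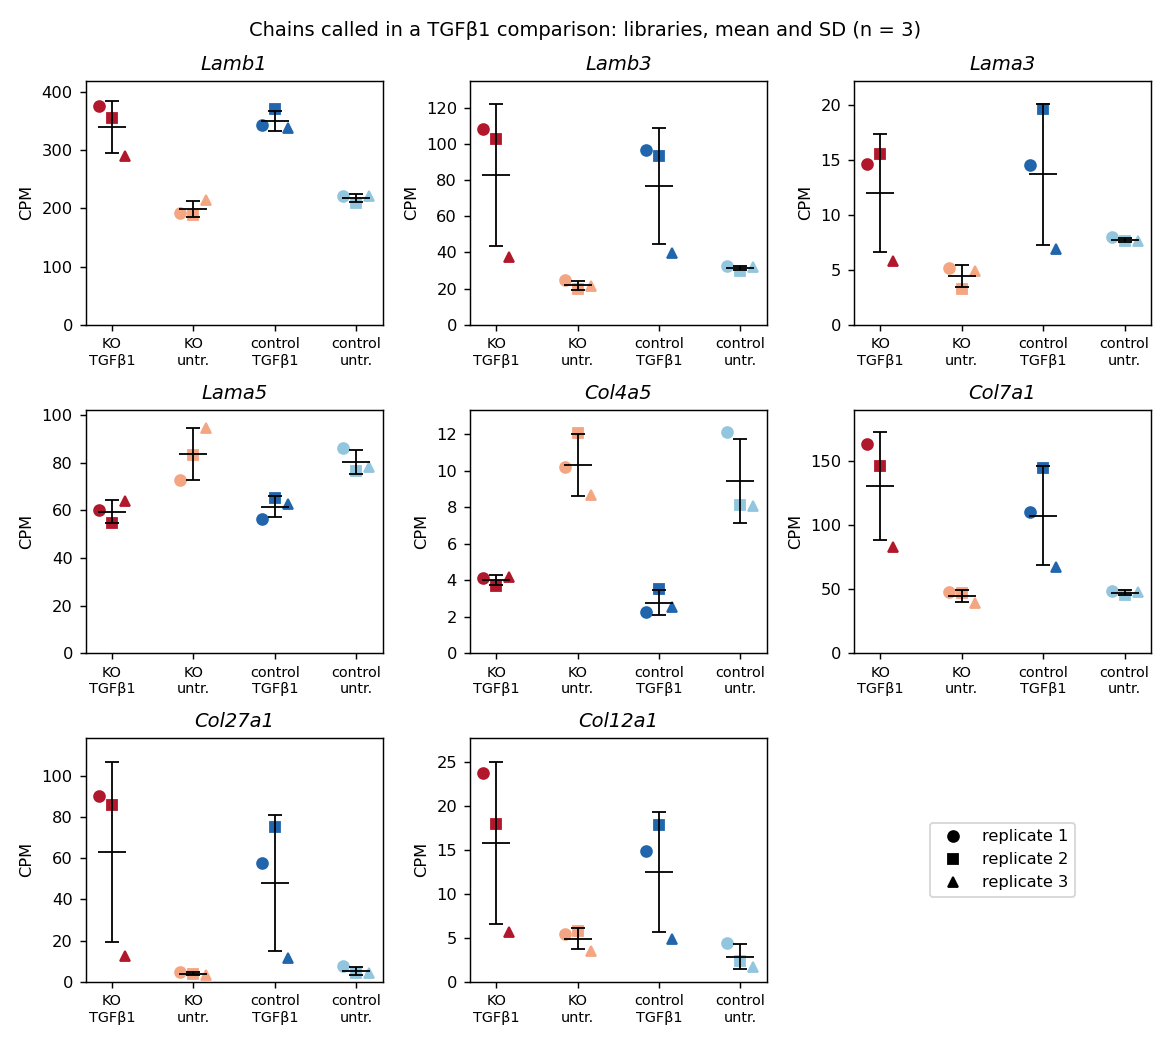
CPM of 8 chains called in a TGFβ1 comparison; points are libraries with shape for the replicate, and the black bar and whiskers are the mean and SD of 3 libraries in each of the 4 groups. Replicate 3 is the lowest treated library of Lamb3, Lama3, Col7a1, Col27a1 and Col12a1 in both genotypes.

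Fibrillar chains other than Col27a1 did not pass the threshold with TGFβ1 in the main fit. With the replicate block, Col1a1 (adjusted p = 0.0264) and Col5a1 (adjusted p = 0.0256) passed in PBRM1 KO cells, and Col5a1 (adjusted p = 0.0153) in control cells. With no filter on low counts, Col1a1 and Col5a1 passed in both genotypes. Col1a1 had 35.3, 32.6 and 12.1 CPM in PBRM1 KO cells with TGFβ1, against 14.4, 10.4 and 8.23 CPM untreated, and 27.0, 53.6 and 11.6 CPM in control cells with TGFβ1, against 13.7, 19.5 and 17.8 CPM untreated. Replicate 3 fell inside or below the untreated range in both genotypes. The log2 change of Col1a1 was 1.25 ± 0.47 in PBRM1 KO cells (adjusted p = 0.105) and 0.85 ± 0.46 in control cells (adjusted p = 0.271). Col5a1 followed the same layout, with 68.7, 51.0 and 24.3 CPM in PBRM1 KO cells with TGFβ1, against 28.8, 26.6 and 22.6 CPM untreated, and changes of 0.87 ± 0.36 in PBRM1 KO cells and 1.00 ± 0.37 in control cells.

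Both chains passed in both genotypes without the replicate 3 libraries. Col1a1 was then at 1.60 ± 0.26 in PBRM1 KO cells (adjusted p = 0.000278) and 1.24 ± 0.24 in control cells (adjusted p = 0.00171), and Col5a1 at 1.18 ± 0.13 in PBRM1 KO cells (adjusted p = 9.04e-06) and 1.36 ± 0.13 in control cells (adjusted p = 3.43e-06). Col1a2, the partner chain of Col1a1 in collagen I, had log2 changes of 0.05 ± 0.35 in PBRM1 KO cells and 0.30 ± 0.33 in control cells. The ratio of Col1a1 to Col1a2 CPM was 3.46, 2.12 and 1.55 in PBRM1 KO cells with TGFβ1, against 1.15, 1.21 and 0.761 untreated. In control cells it was 1.97, 1.83 and 1.03 with TGFβ1, against 1.27, 1.07 and 1.18 untreated. The ratio was above all untreated values in every treated library of PBRM1 KO cells, and in 2 of 3 of control cells.

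Collagen I and III are also fibroblast products, so fibroblast markers are given beside them. Their list summed to 17.9, 14.0 and 7.95 CPM in PBRM1 KO cells with TGFβ1, against 9.60, 8.28 and 6.80 CPM untreated, and to 10.4, 15.7 and 8.23 CPM in control cells with TGFβ1, against 7.68, 8.45 and 8.73 CPM untreated. The sum was carried by Pdgfra, Dcn and Pdgfrb, and Pdgfrb rose by 5.00 ± 0.95 in PBRM1 KO cells (adjusted p = 0.00529), while its change in control cells was 2.37 ± 0.90 (adjusted p = 0.120; 2.81 ± 0.53 and 0.00122 without both replicate 3 libraries). The other 7 genes of the list were at 1.17 CPM or less in all 12 libraries, Thy1 being the highest, and Pi16 at 0.1 CPM or less. The part of these markers in the collagen values was not tested. Control cells with TGFβ1, replicate 2, held the highest level of Col1a1 (53.6 CPM), Col1a2 (29.2 CPM) and Col3a1 (12.1 CPM) of any library. Of the fibroblast genes that carried the sum, Dcn (3.80 CPM) and Pdgfra (6.74 CPM) were also highest there. The list sum was 15.7 CPM there and higher only in PBRM1 KO cells with TGFβ1, replicate 1 (17.9 CPM). Pdgfrb (8.40 CPM) was highest in that PBRM1 KO library, and Thy1 (1.17 CPM) in untreated control replicate 3. Control cells with TGFβ1, replicate 2, also had the most genes detected of any library (24402). What set that control library apart was not tested.

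The collagen IV chains of the ordinary basement membrane were near level. Col4a1 had 133, 115 and 118 CPM in PBRM1 KO cells with TGFβ1, against 110, 108 and 131 CPM untreated, and 105, 104 and 107 CPM in control cells with TGFβ1, against 99.3, 89.6 and 100 CPM untreated. The treated and untreated libraries overlapped in PBRM1 KO cells and did not in control cells. Its log2 change was 0.05 (95% interval −0.15 to 0.25) in PBRM1 KO cells and 0.13 (−0.07 to 0.33) in control cells, so a rise above 0.33 lies outside both intervals. Col4a2 had log2 changes of 0.01 ± 0.12 in PBRM1 KO cells and 0.07 ± 0.12 in control cells. The Col4a1 to Col4a2 ratio of CPM stayed between 2.49 and 3.06 in all 12 libraries. These genes lie head to head on chromosome 8, and their promoter windows, on opposite strands, share 78 bases in GRCm38.p6.

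The remaining chains gave smaller or less certain changes. Col8a1 had 235, 193 and 170 CPM in PBRM1 KO cells with TGFβ1, against 161, 161 and 176 CPM untreated, and 237, 249 and 244 CPM in control cells with TGFβ1, against 210, 205 and 203 CPM untreated. Its log2 change was 0.25 ± 0.10 in PBRM1 KO cells (adjusted p = 0.112) and 0.24 ± 0.10 in control cells (adjusted p = 0.141), and it passed in PBRM1 KO cells without both replicate 3 libraries (0.34 ± 0.09, adjusted p = 0.0106). Col16a1 had log2 changes of 0.50 ± 0.16 in PBRM1 KO cells (adjusted p = 0.0666) and 0.36 ± 0.16 in control cells (adjusted p = 0.198), neither past the threshold, and Col18a1 showed 0.34 ± 0.19 in PBRM1 KO cells and 0.24 ± 0.19 in control cells. Both chains passed in both genotypes without the replicate 3 libraries of TGFβ1. Col16a1 was then at 0.63 ± 0.14 in PBRM1 KO cells (adjusted p = 0.00329) and 0.45 ± 0.14 in control cells (adjusted p = 0.0313), and Col18a1 at 0.49 ± 0.11 in PBRM1 KO cells (adjusted p = 0.00443) and 0.44 ± 0.11 in control cells (adjusted p = 0.0103). Col17a1, the transmembrane collagen of hemidesmosomes, showed −0.27 ± 0.22 in PBRM1 KO cells and 0.16 ± 0.26 in control cells. Col3a1, Col5a2, Col6a1 and Col6a2 had adjusted p of 0.331 or more in both genotypes.

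**Figure D3:**
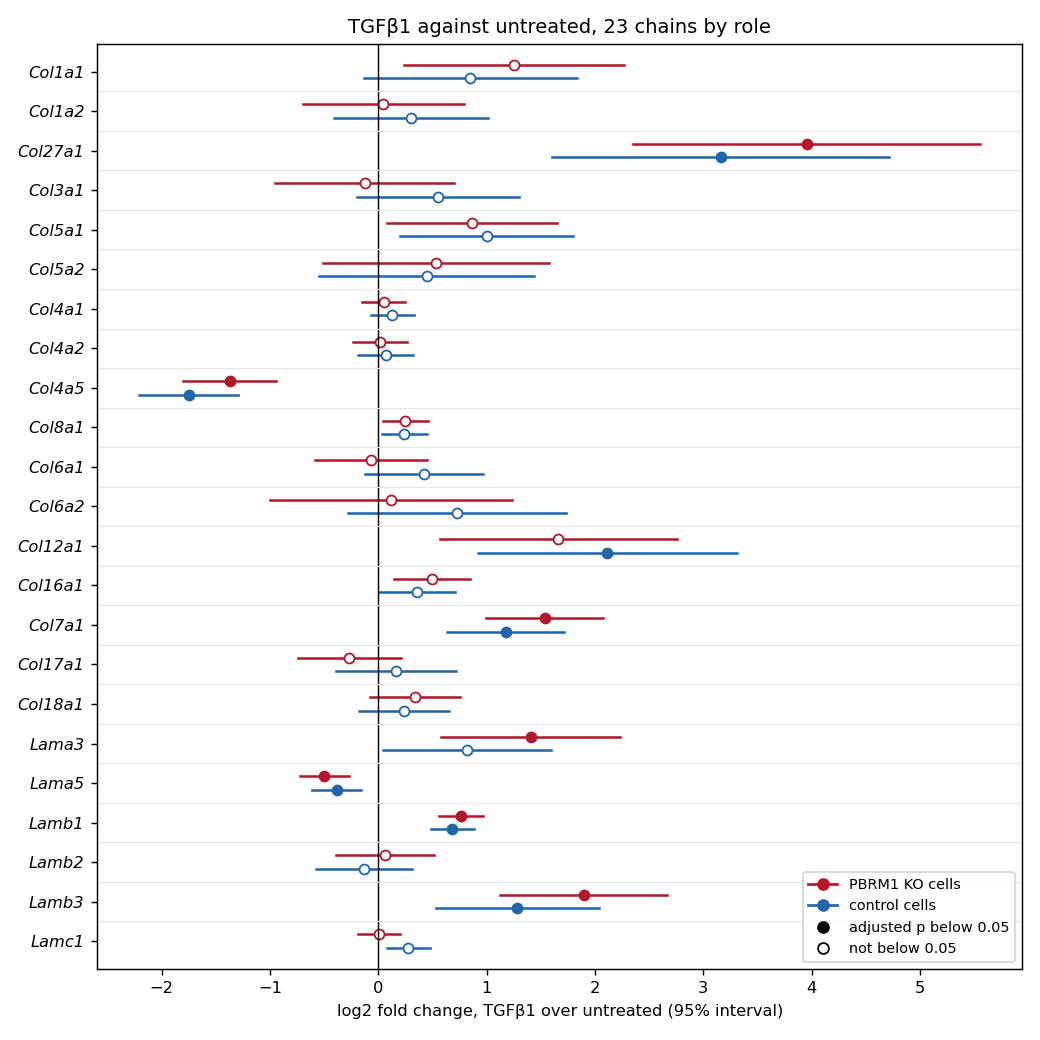
Log2 fold change with its 95% interval, TGFβ1 over untreated, for 23 of the 24 chains, grouped by role, with PBRM1 KO cells above control cells; filled points have adjusted p below 0.05. Filled points in both genotypes are Col27a1, Col7a1, Lamb1 and Lamb3 on the positive side and Col4a5 and Lama5 on the negative side.

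Counted by overlap alone, 7 chains lay above and 2 below their untreated libraries in PBRM1 KO cells, where 16.2% and 13.6% of all genes did so. In control cells 10 lay above and 2 below, where the shares of all genes were 14% and 12.2%. Without both replicate 3 libraries, 12 chains rose and 2 fell in each genotype, with 11 of 12 rising in both; Col8a1 was the other in PBRM1 KO cells and Lamc1 the other in control cells. That fit called 16% of all genes higher and 12% lower in PBRM1 KO cells, and 13.9% higher and 10% lower in control cells. With the replicate number as a block, PBRM1 KO cells had 10 chains higher and 2 lower, where 12% of all genes were higher and 7.84% lower. The added chains were Col1a1 (adjusted p = 0.0264), Col5a1 (0.0256), Col12a1 (0.000348) and Col16a1 (0.0288).

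Replicate 3 did not sit at the same place for every chain. On a scale of log2 CPM with 0 at the untreated mean and 1 at the mean of treated replicates 1 and 2, the genes called higher without replicate 3 had a median of 0.364 for replicate 3 in PBRM1 KO cells (quartiles 0.147 and 0.57, 2241 genes) and 0.363 in control cells (0.124 and 0.601, 1951 genes). For genes called lower the medians were 0.318 in PBRM1 KO cells and 0.307 in control cells. Col4a5, which fell, lay at 0.906 in PBRM1 KO cells and 1.07 in control cells. Lamb1, which rose, lay at 0.646 in PBRM1 KO cells and 0.923 in control cells. Lama5, which fell, lay at 0.665 in PBRM1 KO cells and 0.832 in control cells. Col4a5, Lamb1 and Lama5 thus had most of their change in replicate 3. Col27a1 lay near the median, at 0.376 in PBRM1 KO cells and 0.316 in control cells. At the other end Col5a1 lay at −0.067 in PBRM1 KO cells and −0.127 in control cells. Col18a1 lay at −0.056 in PBRM1 KO cells and −0.680 in control cells. The values of both are at or below the untreated level. Col1a1 lay at 0.109 in PBRM1 KO cells and −0.439 in control cells. These positions are values of 1 library each and carry no test. Treated replicates 1 and 2 served both to call the genes and to set the 1 of the scale, which by itself favours positions below 1.

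**Figure D4:**
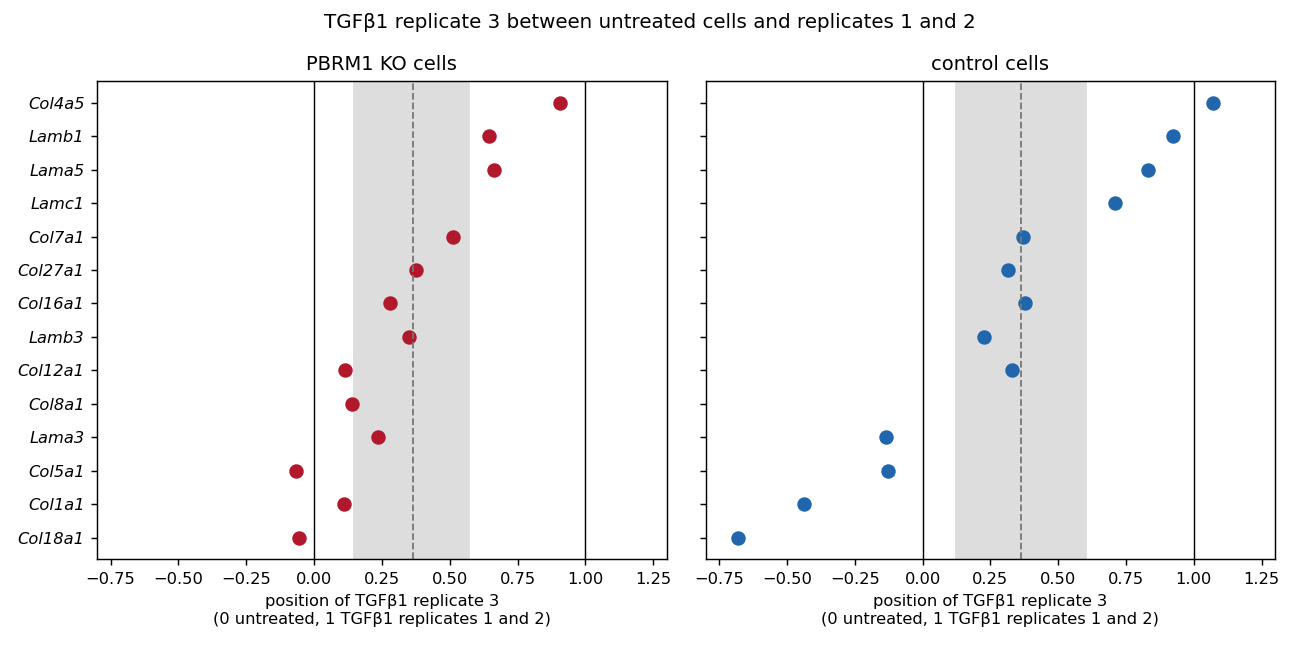
Position of treated replicate 3 between the untreated mean (0) and the mean of treated replicates 1 and 2 (1), on log2 CPM, for 14 chains called without replicate 3 in PBRM1 KO cells (left) and control cells (right). The dashed line and grey band are the median and quartiles over all genes called higher. Lamb1 and the falling chains Col4a5 and Lama5 lie above the band and Col1a1, Col5a1 and Col18a1 below it in both genotypes.

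Between genotypes, no chain passed the threshold in the main fit, over all 12 libraries with the low-count filter. Untreated, 0 of 24 chains were higher and 0 lower in PBRM1 KO cells than in control cells, where 0.0428% of all genes were higher and 0.236% lower; DESeq2 and limma-voom also gave 0, and 4 chains had an unadjusted p below 0.05, as did 7.6% of all genes. With TGFβ1 the counts were again 0 and 0, where 0.0714% of all genes were higher and 0.2% lower, DESeq2 and limma-voom gave 0, and 4 chains had an unadjusted p below 0.05, as did 8.52% of all genes. The median log2 difference of the 24 chains was −0.07 untreated and 0.05 with TGFβ1, where that of all genes was −0.003 in both. Not every alternative gave 0. With no filter on low counts, Col12a1 and Col17a1 were higher and Col1a1, Lama3 and Lamb3 lower in untreated PBRM1 KO cells. Col1a2 and Col3a1 were lower with TGFβ1 in that fit. The fit of only the 6 untreated libraries called Lamb3 lower.

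The 2 genotype comparisons share no library, and 4 chains were separate between genotypes in both, 2 higher and 2 lower in PBRM1 KO cells, where 1.42% of all genes were higher and 1.89% lower in both. Col8a1 had 161, 161 and 176 CPM in untreated PBRM1 KO cells, against 210, 205 and 203 CPM in untreated control cells, and its log2 difference was −0.31 ± 0.10 (adjusted p = 0.330). With TGFβ1 the difference was −0.30 ± 0.10 (adjusted p = 0.317), with PBRM1 KO libraries at 170 to 235 CPM and control libraries at 237 to 249 CPM. Col17a1 had 3.56, 3.18 and 3.88 CPM in untreated PBRM1 KO cells, against 1.54, 2.40 and 1.49 CPM in untreated control cells, a log2 difference of 0.96 ± 0.24 (adjusted p = 0.158). With TGFβ1 it had 3.30, 3.49 and 2.14 CPM in PBRM1 KO cells, against 1.94, 2.08 and 2.08 CPM in control cells, a difference of 0.53 ± 0.24 (adjusted p = 0.569). Col8a1 was thus lower and Col17a1 higher in every PBRM1 KO library than in the control libraries of the same treatment, without passing the adjusted threshold.

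The others were Col4a1, higher by 0.27 ± 0.09 untreated (adjusted p = 0.426) and 0.19 ± 0.09 with TGFβ1 (adjusted p = 0.601), and Col3a1, at −0.39 ± 0.37 untreated (adjusted p = 0.930) and −1.06 ± 0.36 with TGFβ1 (adjusted p = 0.364). The Col3a1 value with TGFβ1 was −0.32 without control replicate 2, the library with 12.1 CPM. Untreated, 2 chains lay above and 4 below, Lama3 and Lamb3 being the others below, where 6.95% and 8.7% of all genes were so placed. With TGFβ1, 4 lay above and 2 below, Col4a2 and Col4a5 being the others above, where the shares of all genes were 6.23% and 5.62%. Untreated Lamb3 was 24.5, 19.7 and 21.5 CPM in PBRM1 KO cells, against 32.3, 29.9 and 31.9 CPM in control cells. Its difference of −0.52 ± 0.36 (adjusted p = 0.878) passed without both treated replicate 3 libraries (adjusted p = 0.0121), as did those of Lama3 (0.0423) and Col17a1 (0.0478). The fit shares 1 spread per gene over all groups, and without those libraries 0.393% of all genes were higher and 1.02% lower.

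**Figure D5:**
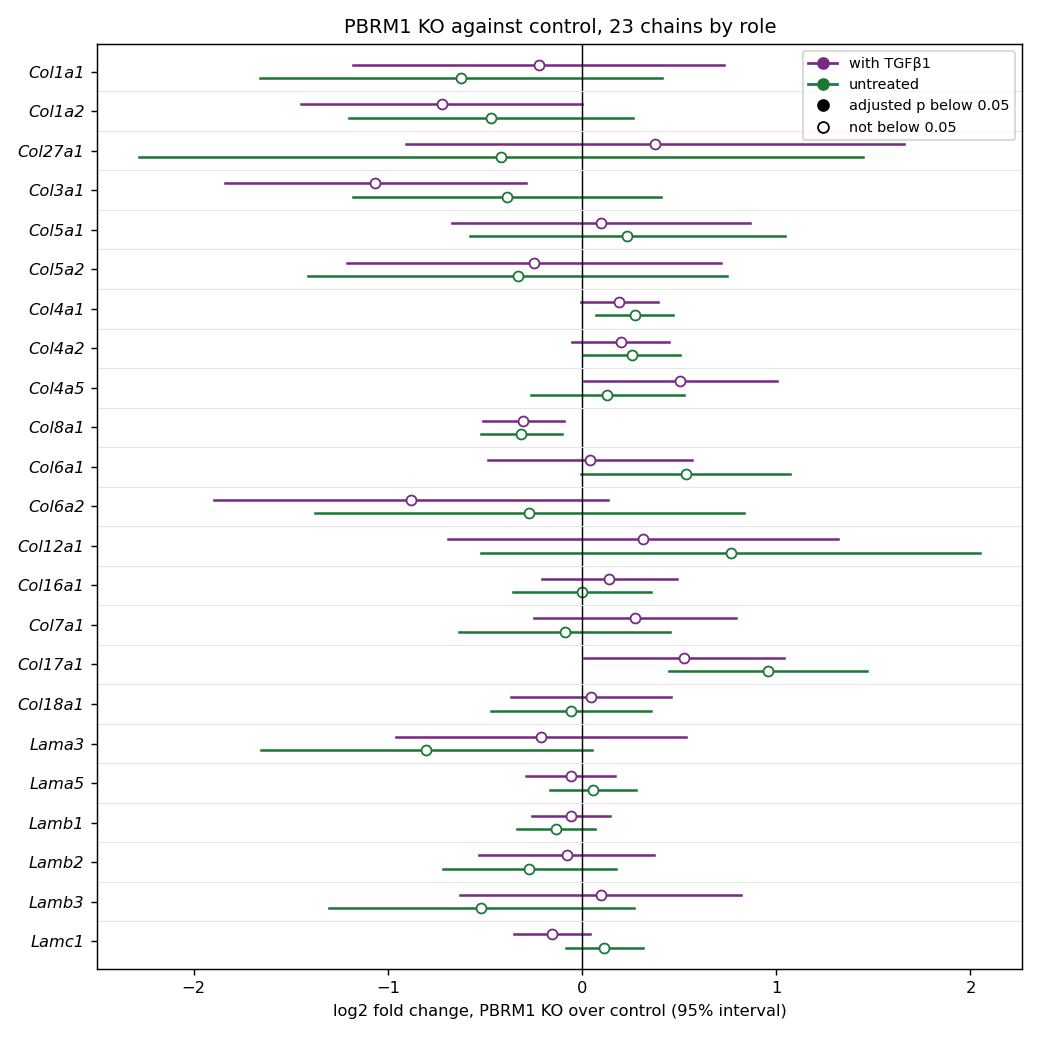
Log2 difference with its 95% interval, PBRM1 KO over control, for 23 of the 24 chains, with the TGFβ1 comparison above the untreated one; all points are open because none has adjusted p below 0.05. The intervals of Col8a1 lie below 0 and those of Col17a1 above 0 in both comparisons.

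Whether the TGFβ1 response differed between genotypes was tested with the interaction term. None of the 24 chains passed, 0 had an unadjusted p below 0.05, where 1.76% of all genes did, and 0% of all genes were called in either direction; DESeq2 and limma-voom called 0 chains as well. The change of Lamb1 in PBRM1 KO cells minus that in control cells was 0.08 (95% interval −0.21 to 0.36), that of Lama5 −0.12 (−0.43 to 0.20) and that of Col4a1 −0.08 (−0.36 to 0.20). For the variable chains the intervals were wide, as for Lamb3 at 0.61 (−0.45 to 1.68) and Col27a1 at 0.79 (−1.47 to 3.05), so differences of that size were not detectable here. Lamc1 came closest, at −0.27 ± 0.13 (unadjusted p = 0.0563, adjusted p = 1).

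Receptors for these chains moved in part. Over all genes tested, 7.65% rose and 3.72% fell in PBRM1 KO cells, and 5.89% rose and 2.91% fell in control cells. Among collagen receptors 2 of 5 tested genes rose in each genotype, Itga2, the alpha chain of a collagen-binding integrin, by 1.28 ± 0.17 in PBRM1 KO cells and 1.22 ± 0.17 in control cells, and its partner Itgb1 by 0.31 ± 0.08 in PBRM1 KO cells and 0.35 ± 0.08 in control cells. Among laminin receptors 1 of 7 rose and 1 fell in each genotype. Sdc1, a syndecan, rose by 0.74 ± 0.22 in PBRM1 KO cells and 1.03 ± 0.22 in control cells. Itga6, the alpha chain of the hemidesmosome integrin, fell by 1.35 ± 0.19 in PBRM1 KO cells and by 0.98 ± 0.19 in control cells, while Itgb4, its partner, showed 0.47 ± 0.23 in PBRM1 KO cells and 0.28 ± 0.23 in control cells without passing. Without both replicate 3 libraries Itgb4 passed in both, at 0.69 ± 0.11 in PBRM1 KO cells (adjusted p = 0.00034) and 0.51 ± 0.12 in control cells (adjusted p = 0.00476). Of 6 other basement membrane genes, Sparc, a collagen-binding glycoprotein, rose by 1.37 ± 0.20 in PBRM1 KO cells and 1.01 ± 0.20 in control cells, and Npnt, an integrin ligand, fell by 1.04 ± 0.26 in PBRM1 KO cells and by 0.97 ± 0.27 in control cells. In the fit without both replicate 3 libraries, 3 collagen receptors rose in each genotype, and 2 laminin receptors rose and 3 fell in each. The other basement membrane genes then had 2 higher and 1 lower in PBRM1 KO cells, and 1 higher and 1 lower in control cells. That fit called 16% of all genes higher and 12% lower in PBRM1 KO cells, and 13.9% higher and 10% lower in control cells.

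Of 25 tested genes for collagen synthesis and crosslinking, 10 rose and 2 fell in PBRM1 KO cells, and 7 rose and 1 fell in control cells. The shares of all genes were 7.65% and 3.72% in PBRM1 KO cells, and 5.89% and 2.91% in control cells. Loxl2, a lysyl oxidase that crosslinks collagen, rose by 3.45 ± 0.76 in PBRM1 KO cells and 3.80 ± 0.86 in control cells, at levels of 1.07 to 3.96 CPM in PBRM1 KO cells with TGFβ1 against 0.136 to 0.324 CPM untreated. Loxl3, of the same family, rose by 1.16 ± 0.27 in PBRM1 KO cells and 1.46 ± 0.28 in control cells. Plod2, a lysyl hydroxylase, rose by 1.15 ± 0.25 in PBRM1 KO cells and 1.00 ± 0.25 in control cells. Bmp1, which cleaves procollagen C-propeptides, rose by 0.99 ± 0.17 in PBRM1 KO cells and 0.91 ± 0.17 in control cells. Pcolce, an enhancer of that cleavage, fell by 0.63 ± 0.14 in PBRM1 KO cells and by 0.69 ± 0.13 in control cells. Ppib, a prolyl isomerase, fell by 0.51 ± 0.14 in PBRM1 KO cells. Its log2 change in control cells was −0.41 ± 0.14 (adjusted p = 0.0875). Without both replicate 3 libraries Ppib passed in both, at −0.64 ± 0.12 in PBRM1 KO cells and −0.55 ± 0.12 in control cells. The counts without both replicate 3 libraries were higher: 13 rose and 3 fell in PBRM1 KO cells, and 12 rose and 3 fell in control cells. The shares of all genes were then higher too, at 16% and 12% in PBRM1 KO cells, and 13.9% and 10% in control cells. Over all 12 libraries, none of the 4 partner lists had a gene past the threshold between genotypes or in the interaction; without both replicate 3 libraries Itga6 was higher in untreated PBRM1 KO than in untreated control cells, by 0.52 ± 0.11 (adjusted p = 0.036). Of the collagen synthesis genes, P3h4 had the smallest p with TGFβ1, at 0.83 ± 0.23 in PBRM1 KO over control cells (adjusted p = 0.230), and Pcolce the smallest untreated, at −0.47 ± 0.13 (adjusted p = 0.239).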

How the data were processed

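Libraries were made from poly(A) RNA by 3′ end counting with stranded single-end reads, and duplicates were removed by molecular identifiers, per the labels' protocols. The submitters' processing notes name STAR 2.7.11, fastp 0.24.0, featureCounts with Subread 2.1.1, SAMtools 1.22.1 and edgeR 3.38.4, and genome build mm39; settings and annotation release are not stated there. The deposited counts are expected counts, per the file headers and values, with 91.8% of cells whole (tolerance 0); 12 chains had a fractional count in some library and 0 in 10 or more. The deposited CPM equalled count over library total, per the file headers, with a largest difference of 4.85e-06. The 92 ERCC rows held 0 counts and stayed out.

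Counts were rounded, filtered with filterByExpr (14012 genes left) and scaled by TMM (factors 0.983 to 1.023). edgeR 4.0.16 in R 4.3.3 fitted 1 mean per group over all 12 libraries with the quasi-likelihood F test, and p was adjusted by Benjamini-Hochberg over all genes tested, with a threshold of 0.05. Values beside ± are standard errors, each a log2 change divided by the root of its F value. The fit was tested on simulated counts. Replicate libraries differed by more than sampling noise (chi-square per gene of 3.62 or more). Chains of at least 1 CPM were named, except 1 that is not reported here, and at most 4 genes per direction of each partner list, by p. The members, lists and motifs were chosen with earlier results of these data known.

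Libraries with the same replicate number deviated together from their groups. The correlations were 0.201, 0.139 and 0.202 between treated and untreated PBRM1 KO cells, and 0.396, 0.416 and 0.726 between treated cells of both genotypes. All were over 0.1, so the replicate numbers were read as pairing these comparisons. The main fit nevertheless held no replicate block. Values in the text are from it unless the block is named. The other comparisons were not read as paired, because not all of their correlations were over 0.1. They were 0.258, −0.084 and 0.137 between treated and untreated control cells, and 0.149, 0.069 and 0.125 between untreated cells of both genotypes. The alternatives comprised scaling by RLE or by library size, no filter, at least 1 CPM, DESeq2 1.42.0, limma-voom (limma 3.58.1), unrounded counts, a replicate block, only the 6 libraries compared, each library left out in turn and both treated replicate 3 libraries left out. Promoter windows are from RefSeq with build GRCm38.p6 and covered 18 of the 24 chains tested; they were not used with the mm39 counts beyond gene names.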

Additional observations from a re-analysis of the deposited data

How the results depend on the processing

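RLE scaling, library-size scaling, unrounded counts and the 1 CPM filter gave the same counts of called chains in all comparisons, and DESeq2 added Col16a1 in PBRM1 KO cells. With no filter, where 47 chains were tested, 11 chains were higher with TGFβ1 in PBRM1 KO cells, 2 were higher and 3 lower between genotypes untreated, and 2 lower with TGFβ1. In control cells the fit with no filter added Col1a1, Col5a1 and Lama3 to the chains higher with TGFβ1. Limma-voom called 3 higher with TGFβ1 in control cells, losing Col12a1, Col27a1 and Lamb3. The replicate block gave 10 higher with TGFβ1 in PBRM1 KO cells and changed no call between genotypes. In control cells, where the replicate numbers were not read as pairing the samples, it gave 8 higher, Col5a1 and Lamc1 added. Only the 6 libraries compared gave 1 chain lower between genotypes untreated (Lamb3) and 7 higher with TGFβ1 in PBRM1 KO cells, Col12a1 added. Without both treated replicate 3 libraries, 12 were higher with TGFβ1 in each genotype, and 1 higher and 2 lower between genotypes untreated. With each library left out in turn, 5 to 11 were higher and 1 to 2 lower with TGFβ1 in PBRM1 KO cells, and 1 to 9 higher and 1 to 2 lower in control cells; without control replicate 2 with TGFβ1 the chains called were Lamb1 and Col4a5. Leaving out a library also let 25 chains pass the filter in place of 24. No named chain reversed direction past the threshold in these settings. Of the chains below 1 CPM, Col8a2 was among those called with no filter. Among these settings, all-gene shares are given above for the replicate block in PBRM1 KO cells and for both treated replicate 3 libraries left out. Counts under the other settings stand without that share and are not read as particular to these chains. The causes of these differences were not tested.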
